A study of Mus musculus with 19 samples.

Results

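The interferon-inducible GTPases read here belong to 2 related families. Cells make these proteins in quantity after interferon, and they act on membranes, where they tag and break pathogen vacuoles. They comprise the guanylate-binding proteins, encoded by Gbp genes, and the immunity-related GTPases, encoded by Irgm1, Irgm2, Igtp and Iigp1. The genes were chosen by name, as 6 Gbp genes (Gbp2, Gbp3, Gbp5, Gbp6, Gbp7 and Gbp9) and 4 immunity-related GTPase genes, which makes 10 of the 25239 symbols in the table. All 10 passed the filter on low counts, as did 14301 symbols in all.

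The libraries came from heart tissue of mice in a model of Kawasaki disease, a childhood vasculitis, made to examine how the DNA helicase gene Mcm8 protects vessels. Hearts without Mcm8 gave 5 libraries after LCWE treatment (labelled Mcm8-Ko), and wild-type hearts gave 6 after LCWE. Hearts without Mcm8 gave 3 libraries after PBS, and wild-type hearts gave 5 after PBS. LCWE is the cell wall extract of Lactobacillus casei, which induces coronary vasculitis in mice, and PBS is the saline used as its control. The labels state no strain, age, sex, time after LCWE or kind of Mcm8 allele, nor whether the libraries are separate animals. The p-values therefore measure the spread between these libraries. Total counts per library ranged from 11853233 to 16145911. Mcm8 lay between 0.13 and 0.91 CPM (counts scaled by library size to a common total) in the 8 knockout libraries and between 2.60 and 5.19 CPM in the 11 wild-type libraries, so the genotypes did not overlap. The 6 cardiomyocyte markers, such as the myosin gene Myh6, summed to between 72780 and 110300 CPM over the 19 libraries.

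In most tissues these genes are kept at a low level and are raised by interferon-gamma through the GAS element of their promoters. Type I interferons raise many of them through the interferon-stimulated response element, to which STAT2 and IRF9 are recruited. Guanylate-binding proteins assemble on vacuoles and bacteria and help to start inflammasomes. Among the immunity-related GTPases, Iigp1 encodes an effector that coats vacuoles of Toxoplasma, while Irgm1, Irgm2 and Igtp encode regulators that hold the effectors inactive on the membranes of the cell itself. In heart tissue the counts do not tell which cells carry the transcripts, and in bulk tissue more cells of a type and more RNA per cell cannot be told apart.

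The genes lie in clusters on 4 chromosomes, apart from Mcm8 on chromosome 2. In GENCODE M21 on GRCm38 all are annotated as protein-coding. Gbp5, Gbp7, Gbp3 and Gbp2 follow each other on chromosome 3 between 142493978 and 142638008. Gbp9 and Gbp6 lie on chromosome 5 between 105077630 and 105293698. Irgm1 (48861968 to 48871683), Igtp (58199556 to 58207591) and Irgm2 (58199618 to 58222782) lie on chromosome 11. The loci of Igtp and Irgm2 overlap, and 11.8% of the 50-base stretches of Igtp transcripts also occur in transcripts of Irgm2. Gbp6 shares 65.0% of its 50-base stretches with Gm43302, a symbol absent from the deposited counts, and 45.9% with Gbp10. With any other gene it shares 70.7%, so its counts could include or lack reads of its neighbours. For the other 9 genes the shared part was at most 12.7% (Gbp7). How the authors counted shared reads, and whether they used strand, is not given in the sources used here.

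Promoter sequence from RefSeq (GRCm38.p6), running from 250 bases before to 50 after the gene's start, was matched for 7 of the 10 genes. The letters GAAANNGAAA, the core of the interferon-stimulated response element, were found on either strand in a promoter of 7 of 7 genes, against 3.44% of all 32851 promoters of that length. The GAS letters TTCNNNGAA were found in 4 of 7 genes (Gbp5, Gbp7, Igtp and Irgm2), against 8.3% of all promoters. These shares count single promoters, while the 7 are genes with a match in any promoter. A further promoter of Gbp3 held neither kind of match. The stretches of 40 bases around the first GAAANNGAAA match are shown 5′ to 3′ on the strand that reads GAAA, since all 7 genes held such a match. Capitals mark GAAANNGAAA matches, which overlap each other in Gbp3 and Irgm1, and TTCNNNGAA matches.
Gbp2 (chr3:142620589-142620628, minus strand): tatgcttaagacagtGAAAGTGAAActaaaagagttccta
Gbp3 (chr3:142559984-142560023, minus strand): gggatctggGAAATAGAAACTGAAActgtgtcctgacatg
Gbp5 (chr3:142496754-142496793, minus strand): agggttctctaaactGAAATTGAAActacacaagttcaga
Gbp7 (chr3:142530268-142530307, minus strand): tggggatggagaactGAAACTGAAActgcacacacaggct
Irgm1 (chr11:48871426-48871465, minus strand): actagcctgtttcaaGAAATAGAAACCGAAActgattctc
Igtp (chr11:58199507-58199546, plus strand): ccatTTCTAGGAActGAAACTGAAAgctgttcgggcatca
Irgm2 (chr11:58214898-58214937, plus strand): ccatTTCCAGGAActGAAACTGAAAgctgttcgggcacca
The Igtp and Irgm2 stretches were the same at 38 of 40 bases and carried a GAS match shortly before the response element. The match began 165 bases upstream of the RefSeq start used for the window in Gbp5 and between 30 and 64 bases upstream in the other 6 genes. GENCODE places some starts elsewhere. The Gbp5, Irgm1 and Irgm2 stretches lie inside the GENCODE loci of these genes, so the distances hold for the RefSeq starts alone.

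The whole promoter of Gbp7, the gene with the smallest p of the 10 in the genotype comparison, is shown on the plus strand (chr3:142530086-142530385), with both kinds of match in capitals.
Gbp7 promoter: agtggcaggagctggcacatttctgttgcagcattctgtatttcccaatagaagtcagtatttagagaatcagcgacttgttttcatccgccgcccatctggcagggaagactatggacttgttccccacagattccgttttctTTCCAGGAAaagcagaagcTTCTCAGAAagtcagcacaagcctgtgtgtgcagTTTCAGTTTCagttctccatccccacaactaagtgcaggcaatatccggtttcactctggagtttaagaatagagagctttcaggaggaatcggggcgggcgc
It held 2 GAS matches followed by 1 response element, read here on its opposite strand as TTTCAGTTTC. Such a match is a description of the letters in this window and does not show that a factor binds there.

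All 10 genes were readily counted in heart tissue, with between 105 and 1769 counts in a library. Levels between genes were compared per length, as CPM per kilobase of annotated exons. In wild-type PBS hearts Igtp stood highest at 9.02 ± 1.08 CPM per kilobase (SD, n = 5). Gbp9 followed at 7.95 ± 2.26, Gbp2 at 7.51 ± 1.66 and Irgm2 at 7.07 ± 0.565, neighbours that differed by less than their spread. The middle of the order was held by Gbp3 at 5.74 ± 2.19, Iigp1 at 4.78 ± 0.754 and Irgm1 at 4.42 ± 0.568 CPM per kilobase. Gbp6 at 3.64 ± 1.71 and Gbp7 at 3.35 ± 0.625 came next, and Gbp5 was lowest at 1.56 ± 0.285. In knockout LCWE hearts Igtp was again the highest, at 20.0 ± 13, and Gbp5 again the lowest, at 2.52 ± 0.828 CPM per kilobase (n = 5).

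The comparison of Mcm8 knockout with wild-type hearts asked what loss of Mcm8 does to the transcripts. All 10 GTPase genes had fitted log2 fold changes above 0 (higher in the knockout) under LCWE, against 50.7% of all tested genes, and under PBS, against 50.2%. None passed edgeR's threshold in either treatment. Averaged over both treatments, the log2 fold changes lay between 0.43 (Gbp2) and 1.02 (Gbp3), with a median of 0.74 against 0 over all tested genes, and 10 of 10 were above 0, against 50.2% of all genes. Averaged, 0 of 10 passed an edgeR adjusted p of 0.05, against 0.014% of all genes, and the adjusted p ran from 0.0551 (Gbp5 and Gbp7) to 0.224 (Gbp6). At an unadjusted p under 0.05, 10 of 10 were higher, against 12% of all tested genes. Of the other tools, DESeq2 called 6 of 10 in the averaged comparison (Gbp3, Gbp5, Gbp7, Irgm1, Irgm2 and Iigp1) and 657 genes in all. By limma-voom 0 of 10 were called, and 2 genes in all. With single libraries left out, edgeR called 2 of 10 without knockout PBS replicate 2, where it called 2397 genes in all. It called 1 of 10 without knockout LCWE replicate 2 and 3 of 10 without knockout LCWE replicate 3, and 0 of 10 without any other library. Over these omissions the genes called in all lay between 1 and 2397. The genes were named with earlier results of these data known, and they share libraries, so these counts are not independent of each other.

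**Figure D1:**
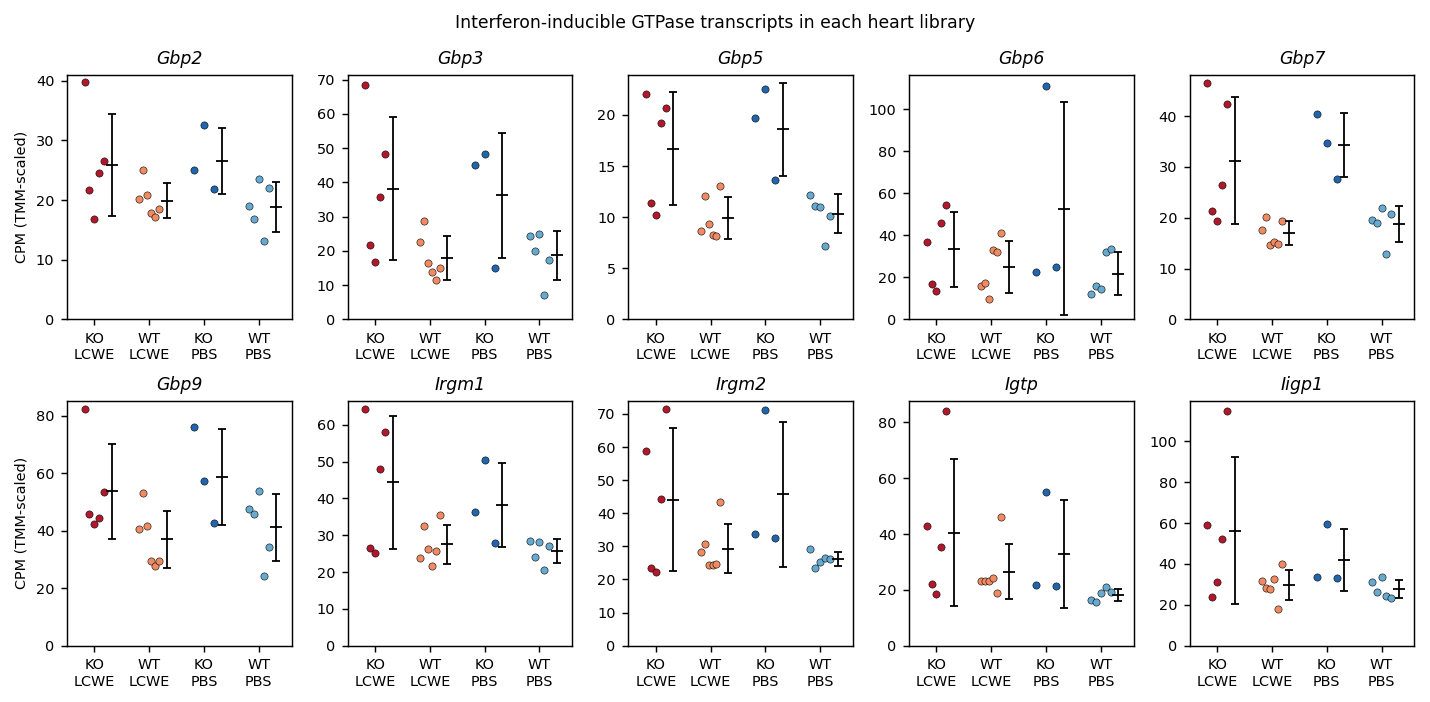
CPM of each of the 10 genes (vertical axis, from 0) in every library, in knockout LCWE (n = 5), wild-type LCWE (n = 6), knockout PBS (n = 3) and wild-type PBS (n = 5) hearts; the bar beside each group is the mean ± SD. Knockout libraries spread more widely than wild-type ones for Gbp3, from 16.7 to 68.4 CPM in knockout LCWE and from 11.5 to 28.6 CPM in wild-type LCWE hearts.

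Gbp7, which in mouse macrophages takes part in assembling the NADPH oxidase, gave the smallest p of the 10. After LCWE it lay at 46.5, 21.4, 19.3, 26.5 and 42.4 CPM in the 5 knockout hearts, against 14.7 to 20.2 CPM with a median of 16.4 in the 6 wild-type hearts. After PBS it lay at 40.4, 34.8 and 27.7 CPM in the knockout hearts, against 19.5, 19, 22, 12.9 and 20.7 CPM in the wild-type hearts. Every knockout PBS library was above every wild-type PBS library, while 1 knockout LCWE library lay within the wild-type LCWE range. The log2 fold change, knockout over wild type, was 0.88 ± 0.20 under LCWE (SE, edgeR adjusted p = 0.634, unadjusted p = 0.00036) and 0.86 ± 0.24 under PBS (adjusted p = 0.0752). Averaged, it was 0.87 ± 0.16, a 1.83-fold difference with a 95% interval from 0.54 to 1.20 on the log2 scale, and the fifth smallest p of 14301 genes.

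Gbp5, which promotes assembly of the NLRP3 inflammasome in mouse macrophages, followed the same pattern at a lower level. After LCWE it lay at 22, 11.4, 10.2, 19.2 and 20.7 CPM in knockout hearts, against 8.20 to 13 CPM with a median of 8.99 in wild-type hearts. After PBS it lay at 19.7, 22.5 and 13.6 CPM in knockout hearts, against 12.2, 11.1, 11, 7.21 and 10.1 CPM in wild-type hearts. The PBS groups did not overlap, and 3 of 5 knockout LCWE libraries stood above all wild-type LCWE libraries. The log2 fold change was 0.75 ± 0.21 under LCWE (edgeR adjusted p = 0.731) and 0.85 ± 0.24 under PBS (adjusted p = 0.0818), and 0.80 ± 0.16 averaged (1.74-fold).

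Gbp3 had the largest averaged difference of the 10 and a wide spread. After LCWE it lay at 68.4, 21.7, 16.7, 35.6 and 48.3 CPM in knockout hearts, against 11.5 to 28.6 CPM with a median of 15.8 in wild-type hearts. After PBS it lay at 45.2, 48.3 and 15.1 CPM in knockout hearts, against 24.3, 19.9, 24.9, 7.21 and 17.4 CPM in wild-type hearts. Under both treatments some knockout libraries were high and others lay within the wild-type range. The log2 fold change was 1.08 ± 0.39 under LCWE and 0.95 ± 0.46 under PBS (edgeR adjusted p = 0.833 and 0.260), and 1.02 ± 0.30 averaged (2.02-fold).

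The other Gbp genes differed less or less evenly. Gbp2, which is lipid-anchored and moves to Toxoplasma vacuoles in mouse cells, averaged 25.8 ± 8.52 CPM in knockout LCWE hearts (n = 5) against 19.9 ± 2.93 CPM in wild-type LCWE hearts (SD, n = 6). Gbp9 averaged 53.7 ± 16.5 CPM in knockout LCWE hearts against 37.0 ± 9.91 CPM in wild-type LCWE hearts, a log2 fold change of 0.54 ± 0.22 (SE, edgeR adjusted p = 0.853). Both genes overlapped between genotypes in each treatment. Gbp6 differed most under PBS, at 22.3, 111 and 24.8 CPM in knockout hearts against 12.3 to 33.4 CPM with a median of 16.1 in wild-type hearts. That difference (1.28 ± 0.59 on the log2 scale, edgeR adjusted p = 0.239) rested on knockout PBS replicate 2, since it was 0.12 without that library, and the averaged log2 fold change of Gbp6 was then 0.27, against 0.86 with it. Under LCWE Gbp6 differed by 0.43 ± 0.50, and by 0.18 without knockout LCWE replicate 5, 0.28 without replicate 4 and 0.26 without wild-type LCWE replicate 3. Under LCWE the log2 fold change of Gbp2 was 0.37, and 0.17 without knockout LCWE replicate 1, and that of Gbp9 was 0.33 without the same library. Under PBS Gbp2 differed by 0.49, and by 0.32 without knockout PBS replicate 2, and Gbp9 by 0.51, and by 0.28 without knockout PBS replicate 1.

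Among the immunity-related GTPases, the regulator Irgm1 gave the smallest p under LCWE and averaged, and Irgm2 under PBS. After LCWE Irgm1 lay at 64.3, 26.4, 25.1, 47.9 and 58.0 CPM in knockout hearts, against 21.6 to 35.6 CPM with a median of 25.9 in wild-type hearts. After PBS it lay at 36.3, 50.3 and 27.9 CPM in knockout hearts, against 28.4, 24.2, 28.2, 20.6 and 27.0 CPM in wild-type hearts. In each treatment some knockout libraries stood above all wild-type ones and others did not. The log2 fold change was 0.69 ± 0.22 under LCWE and 0.57 ± 0.27 under PBS (edgeR adjusted p = 0.804 and 0.238), and 0.63 ± 0.17 averaged (1.55-fold). Under PBS it was 0.32 without knockout PBS replicate 2.

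Igtp and Irgm2, regulators whose loci overlap, went with each other. After LCWE Igtp lay at 42.8, 22, 18.4, 35.2 and 84.2 CPM in knockout hearts, against 18.7 to 46.2 CPM with a median of 23.2 in wild-type hearts. After PBS Igtp lay at 21.7, 55.1 and 21.4 CPM in knockout hearts, against 15.6 to 20.9 CPM with a median of 18.9 in wild-type hearts. The PBS groups did not overlap, although 2 of the 3 knockout libraries lay just above the wild-type range, while the LCWE groups overlapped. Irgm2 averaged 44.1 ± 21.6 CPM in knockout LCWE hearts against 29.3 ± 7.33 CPM in wild-type LCWE hearts, and 45.7 ± 22 CPM in knockout PBS hearts against 26.1 ± 2.09 CPM in wild-type PBS hearts. The averaged log2 fold change was 0.73 ± 0.27 for Igtp and 0.70 ± 0.21 for Irgm2 (edgeR adjusted p = 0.154 and 0.104). Single libraries carried much of these differences. Under PBS Igtp differed by 0.84 and Irgm2 by 0.81, but by 0.24 and 0.34 without knockout PBS replicate 2, and the averaged value of Igtp was then 0.43. Under LCWE Igtp differed by 0.62 and Irgm2 by 0.59, but by 0.17 and 0.35 without knockout LCWE replicate 5.

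Iigp1, the effector that coats vacuoles and lies on chromosome 18, had the second largest fold of the 10 under LCWE. There it lay at 59.2, 23.6, 31.2, 52.3 and 115 CPM in knockout hearts, against 17.9 to 40 CPM with a median of 30.2 in wild-type hearts. After PBS it lay at 33.7, 59.5 and 32.9 CPM in knockout hearts, against 23.5 to 33.5 CPM with a median of 26.5 in wild-type hearts. Of 5 knockout LCWE libraries, 3 stood above every wild-type LCWE library. The log2 fold change was 0.92 ± 0.31 under LCWE and 0.59 ± 0.37 under PBS (edgeR adjusted p = 0.804 and 0.376). It was 0.49 under LCWE without knockout LCWE replicate 5, and 0.26 under PBS without knockout PBS replicate 2.

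Counted over the family, the groups did not overlap under PBS for 4 of 10 genes (Gbp5, Gbp7, Irgm2 and Igtp), against 4.1% of all tested genes higher in this way. Under LCWE 0 of 10 were free of overlap, against 0.168% of all genes. At an unadjusted p under 0.05, edgeR gave 6 of 10 genes higher in the knockout under PBS, against 12.3% of all genes, and 7 of 10 under LCWE, against 2.43%. With adjustment edgeR called 0 of 10 in both treatments, against 0.601% of all genes under PBS and 0.00699% under LCWE. DESeq2 called 2 of 10 under PBS (Gbp5 and Gbp7), with 693 genes called in all, and 0 under LCWE, with 8 in all. By limma-voom 0 of 10 were called in both treatments, with 1 gene called in all in each. Without knockout PBS replicate 2, edgeR called 1 of 10 under PBS (Gbp7), with 2606 genes called in all. The 2 comparisons use different libraries, but they share 1 fit with a common estimate of spread. The labels do not state whether the libraries are separate animals, so the treatments are not taken as independent measurements of the genotype. The genes within each comparison are not independent either. The interaction, which asks whether the genotype difference changed with LCWE, was called for 0 of 10 genes by edgeR, DESeq2 and limma-voom, with edgeR calling 0% of all genes. At an unadjusted p under 0.05 edgeR gave 0 of 10, against 8.01% of all genes, and the 95% intervals of the interaction spanned -2.51 to 1.41 on the log2 scale over the 10 genes.

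**Figure D2:**
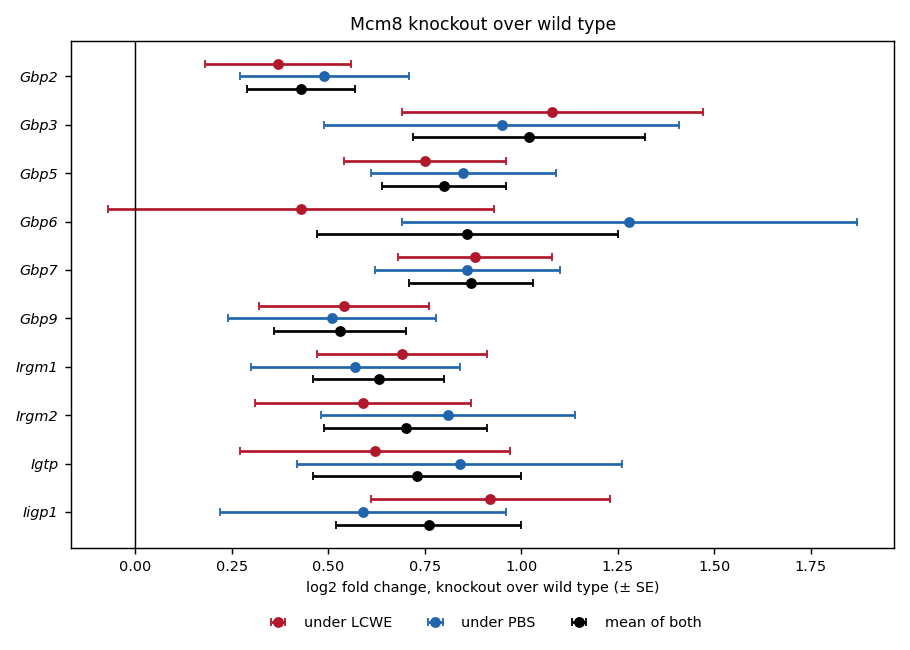
Log2 fold change, knockout over wild type (horizontal axis, bars ± SE of the edgeR fit), of each gene under LCWE, under PBS and averaged over both. All 30 points lie above 0, from 0.37 for Gbp2 under LCWE to 1.28 for Gbp6 under PBS, and the bar of Gbp6 under LCWE crosses 0.

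The labels carry a sample number whose meaning is not given, and the numbers fall into ranges that are shared unevenly between groups. Among LCWE libraries numbered 100 to under 200, with 3 in each genotype, the 10 log2 fold changes lay between 0.25 and 0.74 with a median of 0.44. Among those numbered under 100, with 2 in each genotype, they lay between 0.45 and 1.65 with a median of 0.84. Gbp3 was called there (1.65 ± 0.20, edgeR adjusted p = 0.0129). This restriction was added after the data were seen, and how many genes it called in all is not given. The Gbp3 call can therefore not be set against the share of all genes. All 10 genes were higher in the knockout in both ranges. Under PBS the range 100 to under 200 held 1 knockout and 4 wild-type libraries, with log2 fold changes between 0.21 and 1.24 and a median of 0.48, against 0.82 over all PBS libraries. Gbp6 under PBS was 0.24 in that range and 0.42 with the range as a term in the model, against 1.28 without either. With the range as a term, the averaged log2 fold changes lay between 0.43 and 0.98 with a median of 0.54, and within 100 to under 200 between 0.27 and 0.95 with a median of 0.48, against 0.74 over all libraries. The averaged value of Gbp6 was 0.44 under both settings. The averaged value of Igtp was 0.44 with the term and 0.27 within the range, and that of Iigp1 was 0.55 and 0.30. With the term, Gbp5 (0.72, edgeR adjusted p = 0.0387) and Gbp7 (0.85, adjusted p = 0.0300) were called higher in the knockout. That averaged fit called 260 genes in all, against 2 without the term.

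The knockout libraries did not form 1 level, and the same libraries were high for most of the 10 genes. A mean z-score was taken over the 10 genes, each scaled to mean 0 and SD 1 over the 19 libraries. It was 1.67, 1.66 and 0.78 in knockout LCWE replicates 1, 5 and 4, and -0.35 and -0.62 in replicates 2 and 3. In wild-type LCWE hearts it lay between -0.90 and 0.08. In the knockout PBS hearts it was 1.56, 0.63 and -0.08 in replicates 2, 1 and 3, and in wild-type PBS hearts it lay between -1.14 and -0.18. Thus 5 of the 8 knockout libraries stood above all 11 wild-type libraries, and the other 3 lay within their range. This mean is a description with no test, since it is made from the genes under study.

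**Figure D3:**
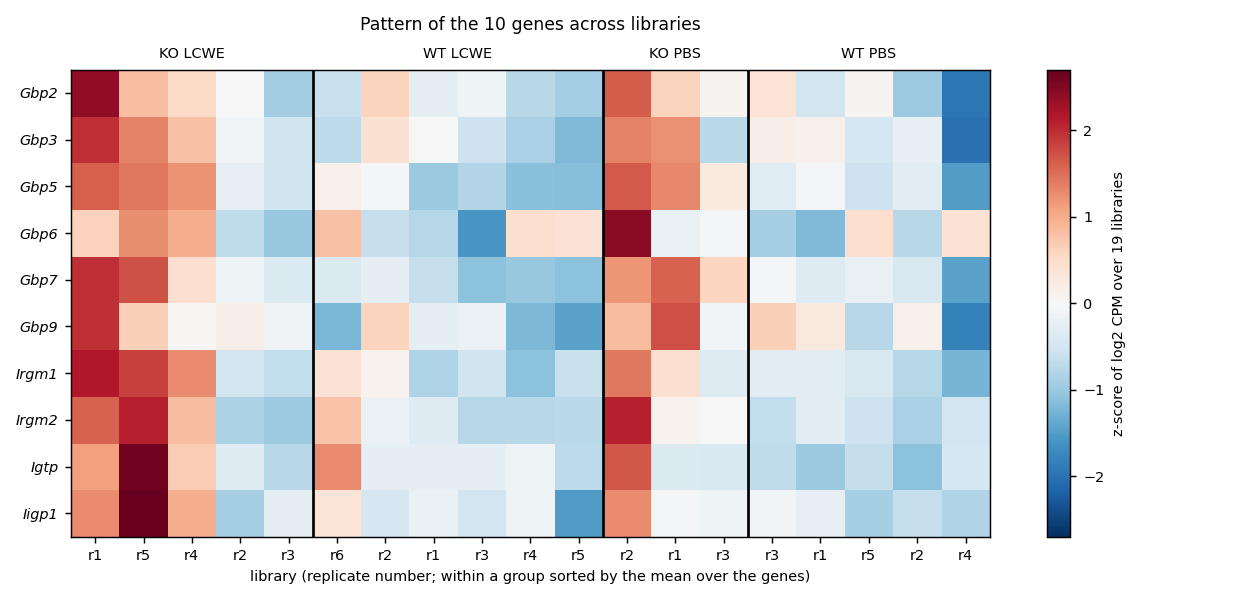
Z-score of log2 CPM (colour, red above and blue below the mean over 19 libraries) of each gene (rows) in each library (columns), grouped as knockout LCWE, wild-type LCWE, knockout PBS and wild-type PBS. Red columns are knockout LCWE replicates 1, 5 and 4 and knockout PBS replicate 2. Knockout PBS replicate 1 is mixed, below the mean for Gbp6, Igtp and Iigp1 and above it for the other genes. Knockout LCWE replicates 2 and 3 resemble the wild-type libraries.

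Across the 19 libraries the genes varied with each other in most pairs. Pearson's r between log2 CPM had a median of 0.77 over the 45 pairs and exceeded 0.7 in 29. The highest values were 0.94 for Gbp5 with Gbp7 and 0.93 for Gbp5 with Irgm1, which lie on different chromosomes. Irgm2 had an r of 0.92 with Igtp, its overlapping neighbour, and also with Irgm1. The lowest value was -0.02 for Gbp6 with Gbp9, although both lie in the cluster on chromosome 5. With each library expressed as its deviation from its group mean, the median was 0.72 over the 45 pairs. These values are descriptions over libraries that share genotype, treatment and preparation.

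The genes whose pattern was most like the family's were other interferon-induced genes. Among 13025 other genes with a mean of at least 1 CPM, the highest r with the mean z-score over 19 libraries was 0.96 for Ifih1, which encodes the RNA sensor MDA5. After it came Adar, an RNA-editing enzyme gene, Usp18, whose product removes ISG15, and Xaf1 (each 0.95). Ifit1 and Irf9 had 0.93, Trim12a and Stat2 0.92, and Lgals3bp and Parp12 0.91. On deviations from the group means Ifih1 was again highest (0.95), with Tap1, the peptide transporter gene, next at 0.95. Adar, Trim12a, Xaf1, Usp18, Parp12 and Irf9 were among the 10 highest on both measures, and Irf7 and Ddx60 were so on the second (0.90 each).

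Other genes of the pathway were read from lists chosen by function. Of 18 further interferon-inducible GTPase genes 13 were tested. All 13 were above 0 in the averaged genotype comparison, against 50.2% of all tested genes, with a median log2 fold change of 0.83. By edgeR 0 of 13 were called, against 0.014% of all tested genes. At an unadjusted p under 0.05, 8 were higher, against 12%. Gbp4 averaged 39.2 ± 16.4 CPM in knockout LCWE hearts against 21.7 ± 2.96 CPM in wild-type LCWE hearts, with an averaged log2 fold change of 0.82 ± 0.18 (edgeR adjusted p = 0.0551). Tgtp1 (1.04 ± 0.26) and Ifi47 (0.90 ± 0.24), which encode further immunity-related GTPases, had adjusted p = 0.0700 and 0.0836 by edgeR. Tgtp1 has a near-identical neighbour, Tgtp2, so their counts are uncertain. Gvin1, a very large GTPase gene, and Gm4070 held 0 counts in all 19 libraries.

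Type I interferon targets had the highest median of the lists. Of 15 genes, 15 were above 0 in the averaged genotype comparison, against 50.2% of all tested genes, with a median log2 fold change of 1.07. By edgeR 0 were called, and 15 were higher at an unadjusted p under 0.05, against 12% of all tested genes. Ifit1, which binds viral RNA, averaged 24.7 ± 15.1 CPM in knockout LCWE hearts against 7.20 ± 2.69 CPM in wild-type LCWE hearts (1.63 ± 0.36 averaged on the log2 scale, edgeR adjusted p = 0.0551). Cmpk2 (0.94 ± 0.22) and Usp18 (1.30 ± 0.30) had adjusted p = 0.0608 and 0.0626 by edgeR.

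Interferon signalling genes and further interferon-gamma targets had members on both sides of 0. Of 17 signalling genes 15 were tested and 11 were above 0, against 50.2% of all tested genes, with a median log2 fold change of 0.18. By edgeR 0 were called. At an unadjusted p under 0.05, 6 were higher, against 12% of all tested genes, and 1 was lower, for which the share of all genes was not taken. The highest were Stat2 (0.93 ± 0.19) and Irf9 (0.88 ± 0.17), partners in the complex that type I interferon activates (edgeR adjusted p = 0.0551 for both), while Irf1, an interferon-induced transcription factor gene, differed by 0.32 ± 0.10 (adjusted p = 0.0995). Stat2 averaged 67.9 ± 29.6 CPM in knockout LCWE hearts against 31.8 ± 4.96 CPM in wild-type LCWE hearts. Ifng held at most 2 counts in a library and 0 in 13 of 19, and Ifnb1 held 0 in all 19, which allows up to 0.255 CPM in a library (3 counts, counting error only). Of 16 interferon-gamma targets 10 were above 0, against 50.2% of all tested genes, with a median of 0.17. By edgeR 0 targets were called, and 6 were higher at an unadjusted p under 0.05, against 12% of all tested genes. Of these, Nlrc5, the activator of MHC class I genes, had the smallest p (1.11 ± 0.30, edgeR adjusted p = 0.0836). Next came the chemokine gene Cxcl10 (1.32 ± 0.39) and Wars, a transfer RNA synthetase gene (0.26 ± 0.08), with edgeR adjusted p = 0.0971 and 0.112.

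None of the autophagy and inflammasome genes read as partners of these GTPases passed the threshold between genotypes. The 12 autophagy genes include genes of the conjugation system, whose products help to place these GTPases on vacuoles. Their median averaged log2 fold change in the knockout was 0.03, with 0 of 12 called by edgeR. At an unadjusted p under 0.05 edgeR gave 2 of 12 higher, against 12% of all tested genes. The smallest p belonged to Sqstm1, the p62 receptor gene (0.43 ± 0.17, edgeR adjusted p = 0.173), Map1lc3b (0.29 ± 0.13) and Ulk1 (0.19 ± 0.13). The 8 inflammasome genes had a median of 0.02 with 4 above 0, against 50.2% of all tested genes. Among them Pycard, the adaptor gene, was lower in value (-0.63 ± 0.20, edgeR adjusted p = 0.106).

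**Figure D4:**
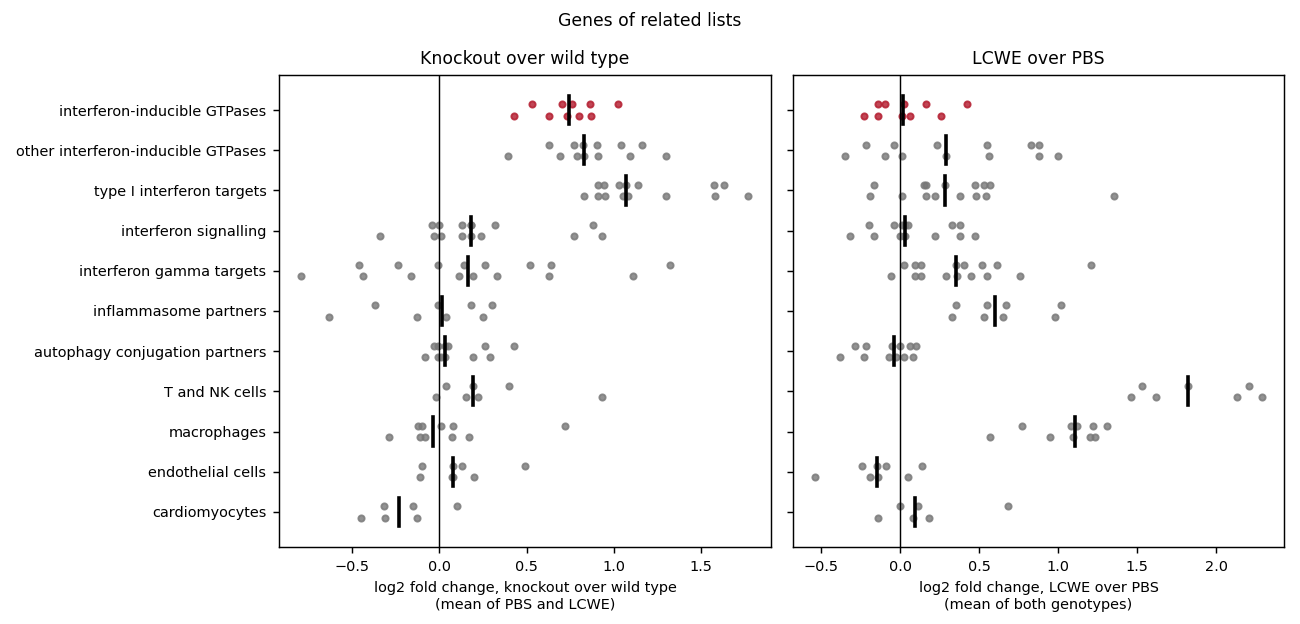
Log2 fold change of each tested gene of 11 lists (points; the 10 GTPase genes in red), knockout over wild type averaged over treatments (left) and LCWE over PBS averaged over genotypes (right); the black bar is the list's median. The GTPases have medians of 0.74 on the left and 0.02 on the right, while macrophage markers have -0.03 on the left and 1.10 on the right.

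The comparison of LCWE with PBS asked whether the vasculitis model itself changes these transcripts. None of the 10 genes passed in wild-type hearts, in knockout hearts or averaged over genotypes, and their values scattered around 0. In wild-type hearts edgeR called 0 of 10, against 0% of all genes, with 0 of 10 at an unadjusted p under 0.05, against 6.24% of all genes. In knockout hearts it called 0 of 10, against 2.9% of all genes, again with 0 of 10 at an unadjusted p under 0.05, against 23.4%. Averaged over genotypes it called 0 of 10, against 2.95% of all genes, with 0 of 10 at an unadjusted p under 0.05, against 25.5%, and the median log2 fold change was 0.02. DESeq2 and limma-voom also called 0 of 10 in each of the 3 comparisons. The knockout PBS group, which is the baseline of the second comparison, is also the group above wild type in the genotype comparison.

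Igtp had the highest averaged LCWE value. It averaged 26.4 ± 9.89 CPM in wild-type LCWE hearts (n = 6) against 18.3 ± 2.17 CPM in wild-type PBS hearts (SD, n = 5), and 40.5 ± 26.3 CPM in knockout LCWE hearts against 32.7 ± 19.4 CPM in knockout PBS hearts. The averaged log2 fold change of Igtp was 0.42 ± 0.28 (SE, edgeR adjusted p = 0.350), with a 95% interval from -0.16 to 1. Gbp7 was at 16.9 ± 2.42 CPM in wild-type LCWE hearts against 18.8 ± 3.5 CPM in wild-type PBS hearts, and its averaged log2 fold change was -0.14 with a 95% interval from -0.48 to 0.19. Gbp2, Gbp5, Gbp7, Gbp9, Irgm1 and Irgm2 had intervals that stayed within 0.52 of 0 on the log2 scale. The intervals of Gbp3 (-0.63 to 0.65), Gbp6 (-1.06 to 0.59), Igtp and Iigp1 (-0.26 to 0.77) were wider. The intervals of Gbp6, Igtp and Iigp1 held differences as large, in 1 direction, as the averaged genotype difference of the same gene.

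**Figure D5:**
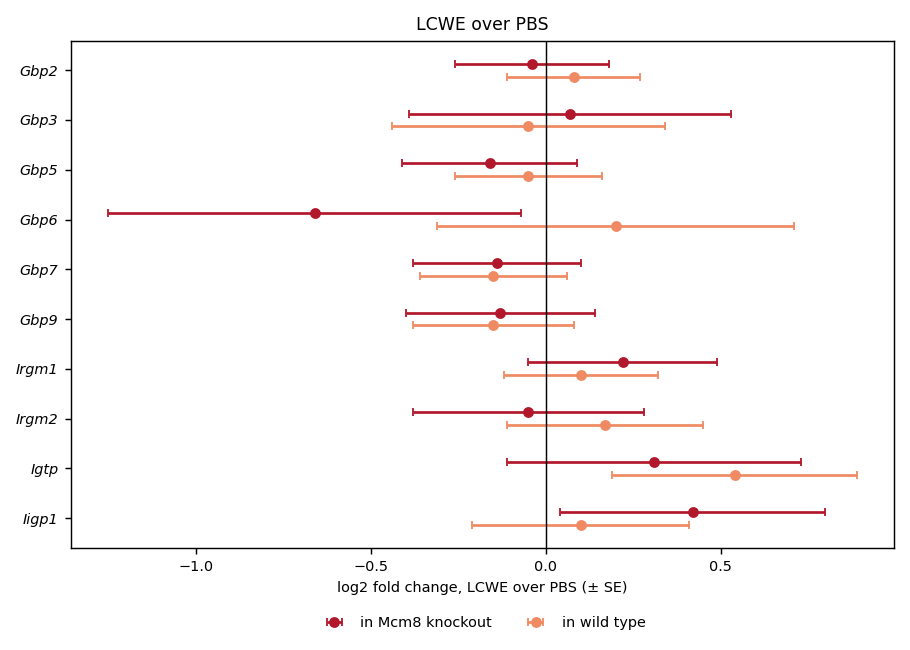
Log2 fold change, LCWE over PBS (horizontal axis, bars ± SE of the edgeR fit), of each gene in Mcm8 knockout and in wild-type hearts. The points lie on both sides of 0, from -0.66 for Gbp6 in the knockout to 0.54 for Igtp in wild type.

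Some leukocyte markers were called higher with LCWE averaged over genotypes, and none was called between genotypes. Of 10 macrophage markers 7 rose with LCWE averaged over genotypes, among them Mrc1 (0.95 ± 0.16), C1qa (1.08 ± 0.25), Tyrobp (1.20 ± 0.27) and Csf1r (0.77 ± 0.19), with edgeR adjusted p from 0.0122 to 0.0397. Of 7 tested T and NK cell markers 2 rose, Cd8a (2.13 ± 0.52) and Il2rb (1.46 ± 0.34), and so did 3 of 4 tested neutrophil markers, while 0 of 3 monocyte markers (median 1.57) and 0 of 3 tested B cell markers (median 0.59) were called. Ptprc, the pan-leukocyte CD45 gene, also rose (1.03 ± 0.17, edgeR adjusted p = 0.0122), as did the inflammasome adaptor gene Pycard (1.02 ± 0.20, adjusted p = 0.0257). These calls depended on 1 library. Without knockout PBS replicate 1 edgeR called 0 genes of the whole table in this comparison, against 422 (2.95%) with it. In wild-type hearts alone edgeR called 0 markers of any leukocyte list with LCWE. At an unadjusted p under 0.05, 5 of 10 macrophage and 5 of 7 T and NK cell markers were higher there. The share of all tested genes at that limit was 6.24% in either direction. In the averaged genotype comparison edgeR called 0 of 10 macrophage markers (median -0.03) and 0 of 7 T and NK cell markers (median 0.19). Both lists held 0 at an unadjusted p under 0.05, against 12% of all tested genes higher. Split by treatment, 10 of 10 macrophage markers were above 0 in the knockout under LCWE (median 0.37), against 50.7% of all tested genes. Under PBS 0 of 10 were (median -0.42), against 50.2%, while the GTPases were above 0 under both. The 10 macrophage markers summed to between 317.5 and 837.9 CPM in knockout LCWE, 238.8 and 559.3 CPM in wild-type LCWE, 116.8 and 317.8 CPM in knockout PBS, and 206.3 and 284.5 CPM in wild-type PBS hearts. The 12 T and NK cell markers summed to at most 19.4 CPM in any library, and Cd3e, a subunit gene of the T cell receptor complex, held 0 counts in 4 libraries. The monocyte marker Ly6c2 differed by 1.35 ± 0.44 between genotypes (edgeR adjusted p = 0.113).

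Markers of resident cells were not called between genotypes. The 8 endothelial markers had a median averaged log2 fold change of 0.08 in the knockout, with 0 of 8 called by edgeR. At an unadjusted p under 0.05, 2 were higher, Flt1 (0.49 ± 0.15) and Pecam1 (0.20 ± 0.10), against 12% of all tested genes. The 6 cardiomyocyte markers had a median of -0.23, with 0 of 6 called. At an unadjusted p under 0.05, 3 were lower, among them the myoglobin gene Mb (-0.32 ± 0.09, edgeR adjusted p = 0.0824). The share of all tested genes lower at that limit was not taken, so no excess can be read from this count. The cardiomyocyte markers summed to between 77360 and 102800 CPM in knockout LCWE hearts and between 93540 and 110300 CPM in wild-type LCWE hearts. Under PBS they summed to between 72780 and 93670 CPM in knockout hearts and between 88260 and 102400 CPM in wild-type hearts. The part of these markers in the GTPase difference was not tested.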

How the data were processed

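The authors deposited raw whole-number counts per gene symbol in 1 table of 19 columns, each matched to 1 sample by its label. Per the labels' protocols, a whole transcriptome amplification kit served for extraction, preamplification and libraries from mouse heart, so reads are not independent molecules. STAR 2.7.8a, limma and GRCm38 stand, without roles, in the submitters' processing notes. From these counts edgeR 4.0.16 (R 4.3.3) was run with filterByExpr (minimum count 10, minimum total 15), TMM factors and a robust quasi-likelihood fit of 4 group means over 19 libraries. Benjamini-Hochberg adjustment ran over 14301 genes. A gene is called, or said to rise or fall, at an adjusted p under 0.05. CPM carry TMM factors, and log2 CPM a prior count of 2. Replicates were numbered in accession order, which pairs no samples. The chi-square of counts per gene was at least 7.1 between any 2 libraries, so no library looked like a copy of another. The procedure was run on simulated counts with known changes as a check. How often it recovers changes as small as those of these genes is not given. Other settings were RLE factors, plain library totals, no filter, a filter of 5 CPM in 3 libraries, a non-robust fit, DESeq2 1.42.0, limma-voom (limma 3.58.1), fits of the compared groups alone, the sample-number range (limits 100 and 200) as covariate or restriction, and every library omitted in turn. The restriction to numbers under 100 was added after the data were seen. The genes, lists and naming rule (per list up to 4 called genes, otherwise up to 3 by smallest p) were chosen with earlier results of these data known. Cd3e, Ifng, Ifnb1, Gvin1 and Gm4070 were named after their values were seen. 1 gene of the interferon signalling list is not reported here by name.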

Additional observations from a re-analysis of the deposited data

Results flagged for a closer look

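Of 33 sets of values tested (10 GTPase genes and Mcm8 in the 3 groups of 5 or 6 libraries), 3 held a library that stood apart from the rest, and chance flags about 1 in 20. Gbp9 lay at 82.3 CPM in knockout LCWE replicate 1, where the next library of the group lay at 53.6 CPM. Irgm2 lay at 43.3 CPM and Igtp at 46.2 CPM in wild-type LCWE replicate 6, where the next libraries lay at 30.6 and 24.4 CPM. Gbp5, Gbp6, Irgm1 and Iigp1 were also highest of the group in that library, which makes 6 of the 10 genes, while Gbp9 lay at 29.5 CPM and Gbp3 at 15.1 CPM, within the range of the other wild-type LCWE libraries.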

How the results depend on the processing

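In the 3 genotype comparisons (under PBS, under LCWE and averaged), all 10 genes were above 0 in all 29, 30 and 28 settings fitted. The number of the 10 genes called, 0 by the main fit in each of the 7 comparisons, moved to 2 under PBS with DESeq2 and, leaving out single libraries, lay between 0 and 1 (Gbp7, without knockout PBS replicate 2). Under LCWE it moved to 1 (Gbp3) within numbers under 100, a setting whose count over all genes is not given. Averaged, it moved to 6 with DESeq2 and to 2 with the range as covariate. Those settings called 657 and 260 genes in all, against 2 in the main fit. Leaving out single libraries it lay between 0 and 3 (2 without knockout PBS replicate 2, 1 without knockout LCWE replicate 2, 3 without knockout LCWE replicate 3). Over these omissions the averaged comparison called between 1 and 2397 genes in all. Within numbers 100 to under 200 knockout PBS held 1 library, so only fold changes are given for that setting. For LCWE against PBS and the interaction the number of the 10 genes called was 0 throughout.

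Values of LCWE against PBS lay near 0 and some turned sign, none of them called. In wild type these were, with the range as covariate, Gbp6 (-0.37), Irgm1 (-0.04), Irgm2 (-0.05) and Iigp1 (-0.08), within numbers 100 to under 200 Gbp3 (0.22), Gbp6 (-0.42), Gbp9 (0.05) and Iigp1 (-0.01), and with limma-voom Gbp3 (0.02). In the knockout they were Gbp2 with library totals alone (0.02), Gbp3 with the covariate (-0.04), and within numbers 100 to under 200 Gbp2 (0.05), Gbp3 (-0.36) and Irgm2 (0.04). Leaving out single libraries, the values turned sign within these ranges: in wild type Gbp2 (-0.03 to 0.16), Gbp3 (-0.26 to 0.06), Gbp5 (-0.16 to 0.01), Gbp6 (-0.01 to 0.40) and Iigp1 (-0.02 to 0.19), and in the knockout Gbp2 (-0.24 to 0.13), Gbp3 (-0.29 to 0.34), Gbp6 (-1.02 to 0.50), Gbp9 (-0.34 to 0.10), Irgm2 (-0.30 to 0.42), Igtp (-0.15 to 0.91) and Iigp1 (-0.02 to 0.76). The cause was not tested. Counts over all genes depended on the settings: averaged over treatments, the genotype comparison called 2 genes by edgeR, 657 by DESeq2, 2 by limma-voom and 2397 by edgeR without knockout PBS replicate 2, and under PBS 86, 693, 1 and 2606. Under PBS the count was 0 without wild-type PBS replicate 1. LCWE against PBS in the knockout called 415, against 1260 by DESeq2, 1 without knockout PBS replicate 1 and 2935 without replicate 2. Averaged over genotypes LCWE called 422, against 1336 by DESeq2, 127 by limma-voom, 0 without knockout PBS replicate 1 and 2847 without replicate 2. No paired analysis was possible because the columns carry no replicate numbers shared between groups. Depth limited little for the GTPases, with at least 105 counts each per library, but did for Ifng.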

Other observations

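Among the 11 wild-type libraries the chromosome 5 genes of the family ran in opposite directions, a pattern noticed after the values were seen and given without a test. Gbp6 lay between 32 and 41 CPM in 5 of them and between 9.69 and 17.4 CPM in the other 6, with no library in between. Both sets hold PBS and LCWE hearts. Gbp9 lay between 24.4 and 34.4 CPM in the 5 libraries with high Gbp6 and between 40.6 and 53.7 CPM in the other 6, and Gbp3 on chromosome 3 lay between 7.21 and 17.4 CPM and between 16.4 and 28.6 CPM. Gbp10, with which Gbp6 shares sequence, went with Gbp6, at 1.63 to 4.6 CPM in the 5 libraries and at 0.085 to 0.668 CPM in the other 6. Over all 19 libraries the genes most like Gbp6 were Gbp10 (r = 0.88), Tap2 (0.85) and Nlrc5 (0.82), and those most like Gbp9 were Rsad2 (0.94), Sp100 (0.92) and Gbp3 (0.90). Of the 5 libraries with high Gbp6, 1 carries a sample number from 100 to under 200, as do all 6 of the others. The labels do not say what the number stands for, and its part in the pattern was not tested.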
